A study of Homo sapiens with 9 samples.

Results

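The ARID1B binding sites of HepG2 cells were divided by whether the core SWI/SNF subunit SNF5 was called at the same place. All 8728 peaks of the ARID1B list were compared with the 20718 peaks of the SNF5 list, 29446 regions in all, and an ARID1B peak was called "with SNF5" when it shared at least 1 bp with an SNF5 peak. By this rule 5490 of 8728 ARID1B peaks had SNF5 and 3238 did not, a share of 62.9% (Wilson 95% interval 61.9 to 63.9%). Membership used position only, so the type, distance, width, nearest gene and sequence of a peak were not part of the rule, although a wider peak has more bases with which to meet an SNF5 peak.

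HepG2 is an established human hepatocellular carcinoma line. Chromatin of untreated cells, fixed with formaldehyde per the study's methods, was immunoprecipitated with a Santa Cruz antibody against ARID1B or a Bethyl antibody against SNF5, and the DNA was sequenced (ChIP-seq). Each antibody had 2 replicates, which the authors merged before calling 1 list of peaks (regions of read enrichment), so no value here has a replicate error. The lists hold no read counts, the depth of the libraries is unknown, and a lower yield of one antibody cannot be told apart from absence of its target at a site. HepG2 stands for 1 tumour line only, and no genotype or treatment differed between the groups.

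SWI/SNF is a remodeling complex that uses ATP to move or evict nucleosomes and so changes which DNA is accessible. ARID1B is a large DNA-binding subunit that takes the place of its paralog ARID1A in the canonical BAF form of the complex, whereas SNF5 (SMARCB1, also BAF47 or INI1) is a core subunit that contacts the nucleosome and is shared by the canonical forms. In liver cells these complexes act at promoters and at enhancers held by factors such as HNF4A, FOXA and C/EBP.

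Windows reaching 50 bases to either side of the peak midpoint give examples of such sites at promoters. A promoter peak lay within 1000 bp of a transcription start site (TSS). The promoter peaks shown are among those with most matches to 12 short motifs. They were taken from genes of the lists described below, in windows free of annotated exons. There were 66 such promoter windows with SNF5 and 5 without. A larger pool can give a higher top count, so the numbers of matches shown cannot be compared between the classes. Letters are GRCh37 (hg19), plus strand, and capitals mark a match to any of the 12 motifs on either strand. With SNF5, the window at CEBPB (chr20:48807052-48807152), which encodes a liver and acute-phase transcription factor, held 5 matches to the SP/KLF GC box GGGCGG, and that at SCAP (chr3:47517471-47517571), the escort protein of the sterol-sensing SREBP factors, held 1 match each to the GC box, to the E-box CACGTG, to the NRF1 motif GCGCATGC and to a CTCF core CAGNGGGC. Without SNF5, the window at ACTL6B (chr7:100254102-100254202), a neuronal SWI/SNF subunit, held 1 match to the NFY motif AGCCAAT.
CEBPB promoter, with SNF5: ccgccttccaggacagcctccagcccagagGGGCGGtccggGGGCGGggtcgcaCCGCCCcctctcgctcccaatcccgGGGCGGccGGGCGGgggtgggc
SCAP promoter, with SNF5: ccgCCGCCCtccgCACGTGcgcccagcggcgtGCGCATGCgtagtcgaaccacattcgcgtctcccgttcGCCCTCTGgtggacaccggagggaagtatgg
ACTL6B promoter, without SNF5: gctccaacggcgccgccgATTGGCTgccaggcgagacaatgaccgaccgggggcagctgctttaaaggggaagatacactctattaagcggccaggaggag

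Away from promoters, the same rule gave a window nearest to ARID1B itself (chr6:157041215-157041315) and another at CEBPB (chr20:48805814-48805914) with SNF5, and windows nearest to KLF13 (chr15:31584923-31585023) and SERPINA1 (chr14:94852754-94852854) without it. KLF13 encodes a GC-box factor and SERPINA1 the plasma protein alpha-1-antitrypsin. The windows with SNF5 were GC-rich, at 72.3% for ARID1B and 75.2% for CEBPB, and those without SNF5 were at 48.5% each. These windows were picked for their motif matches, from 65 candidates with SNF5 and 32 without. Over all intron and distal peaks the median GC content differed by 0.668 percentage points only.
ARID1B distal, with SNF5: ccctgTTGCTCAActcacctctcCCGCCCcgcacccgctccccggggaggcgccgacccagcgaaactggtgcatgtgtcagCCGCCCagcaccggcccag
CEBPB distal, with SNF5: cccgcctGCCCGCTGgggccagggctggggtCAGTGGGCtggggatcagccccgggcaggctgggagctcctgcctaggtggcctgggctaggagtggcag
KLF13 distal, without SNF5: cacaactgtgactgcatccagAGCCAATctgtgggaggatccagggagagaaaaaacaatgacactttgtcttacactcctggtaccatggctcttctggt
SERPINA1 intron or distal, without SNF5: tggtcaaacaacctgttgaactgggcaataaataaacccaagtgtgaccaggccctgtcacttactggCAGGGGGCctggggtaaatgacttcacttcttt

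Intron or distal peaks with SNF5 that carry motifs of liver and stress factors are shown in 4 more windows. Each is the widest peak of a listed gene that holds the motif, chosen after the motif shares had been seen. Candidates were few, with 1 for HNF4A, 1 for FOXA, 2 for AP-1 and 5 for C/EBP. These were an HNF4A match (CAAAGTCC) near TGFBR2 (chr3:30625535-30625635), the type II TGF-beta receptor, a FOXA match (TGTTTAC) near SMAD3 (chr15:67427908-67428008), a transducer of the TGF-beta signal, a C/EBP match (TTGCNNAA) near APOH (chr17:64231653-64231753), a plasma glycoprotein, and an AP-1 match (TGANTCA) near SMURF2 (chr17:62700807-62700907), a ubiquitin ligase of SMAD proteins. The AP-1 pattern takes any base at N. The match shown at SMURF2 reads TGAATCA, and whether FOS/JUN factors bind this form was not tested. All 4 peaks overlapped an SNF5 peak because they were chosen so. At SMAD3 the SNF5 peak covered 85 of the 108 bp and ended at position 67427988, inside the FOXA match.
TGFBR2 window, HNF4A match: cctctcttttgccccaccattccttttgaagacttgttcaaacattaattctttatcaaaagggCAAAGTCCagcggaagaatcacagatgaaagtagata
SMAD3 window, FOXA match: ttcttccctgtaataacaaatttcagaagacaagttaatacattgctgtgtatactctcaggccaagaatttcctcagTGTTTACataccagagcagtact
APOH window, C/EBP match: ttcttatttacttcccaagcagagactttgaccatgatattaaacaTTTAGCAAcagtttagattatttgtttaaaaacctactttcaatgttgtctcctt
SMURF2 window, AP-1 match: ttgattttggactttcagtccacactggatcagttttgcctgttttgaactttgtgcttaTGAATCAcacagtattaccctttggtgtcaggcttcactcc

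ARID1B peaks at promoters had SNF5 more often than those elsewhere. The authors assigned each peak a type, and SNF5 overlapped 2552 of 3306 promoter peaks (77.2%, 75.7 to 78.6%), 121 of 206 exon peaks (58.7%, 51.9 to 65.2%), 1599 of 2963 intron peaks (54.0%, 52.2 to 55.8%) and 1218 of 2253 distal peaks (54.1%, 52 to 56.1%). Promoters stood above the 62.9% of all peaks, while introns and distal sites lay below it and were level with each other. Seen the other way, promoters made up 46.5% of peaks with SNF5 and 23.3% of peaks without, a difference of 23.2 percentage points (Newcombe 95% interval 21.2 to 25.1). Introns made up 29.1% and 42.1% (difference -13.0, -15.1 to -10.9), and distal sites 22.2% and 32.0% (difference -9.78, -11.7 to -7.84). For exons, at 2.2% and 2.63%, the interval of the difference spanned 0. Intervals cover counting error over peaks only, and neighbouring peaks are not independent.

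The promoter excess did not rest on a few chromosomes. The promoter share was higher with SNF5 on 23 of 24 chromosomes, X excepted, the intron share was lower on 21 of 24 (not on 9, 21 and X) and the distal share was lower on 22 of 24 (not on 20 and 22). When overlap was instead required to cover at least 50% of both peaks, only 5.58% of ARID1B peaks qualified, and the promoter difference was -0.536 points, with an interval spanning 0. The width of an ARID1B peak was a median of 16% of that of its SNF5 partner, so that rule keeps pairs of like width.

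**Figure D1:**
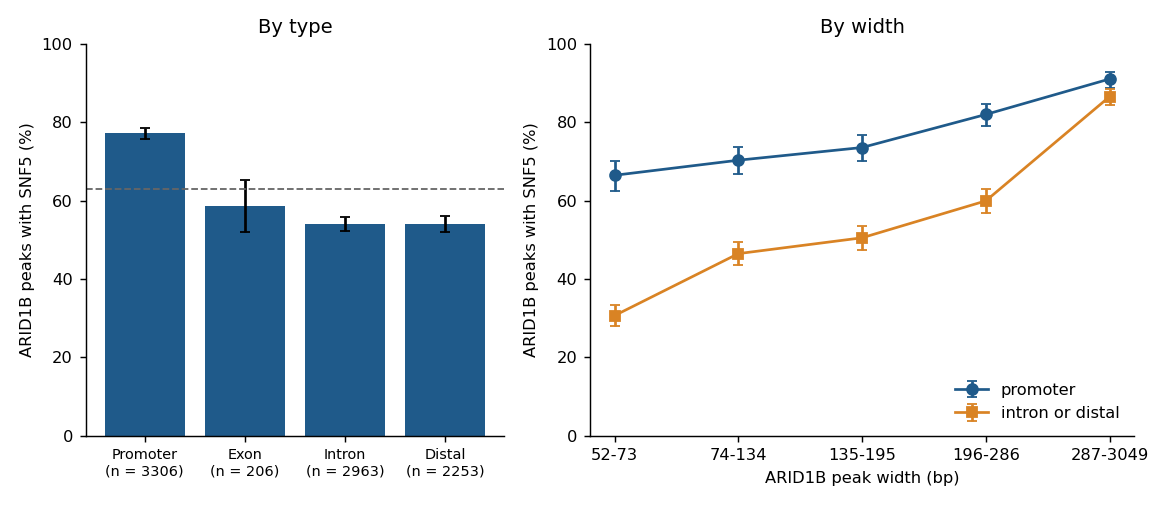
Share of ARID1B peaks that overlap an SNF5 peak (percent, y axes) by type (left, dashed line at 62.9% for all peaks) and by ARID1B peak width in 5 strata (right, promoter against intron or distal peaks). Bars on the values are Wilson 95% intervals; the promoter line lies above the other line in each stratum and the gap narrows from 66.5% against 30.7% to 91.1% against 86.6%.

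Peaks with SNF5 were wider. Their median width was 195 bp (95% interval of the median 191 to 200 bp, quartiles 114 and 312 bp), against 120 bp (114 to 126 bp, quartiles 58 and 189 bp) without SNF5, a ratio of 1.63. The median was higher with SNF5 on all 24 chromosomes. The ratio was smallest at promoters, where medians were 188 and 131.5 bp, and larger in introns, at 204 and 122 bp, and at distal sites, at 199 and 110 bp. The narrowest width in the ARID1B list, 52 bp, was shared by 1187 peaks and held 22.8% of peaks without SNF5 but 8.18% of those with it. Of these narrowest peaks 37.8% had SNF5, far below the share over the list. By contrast the narrowest SNF5 peak was 119 bp, so the lists have different lower limits of width.

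The share with SNF5 rose with each stratum of width, from 42.4% at 52 to 73 bp through 55.5, 59.5 and 69.1% to 88.3% at 287 bp or more. At promoters it rose from 66.5 to 91.1%, and in introns and distal sites from 30.7 to 86.6%. Even the narrowest promoter peaks therefore met SNF5 more often than did the intron or distal peaks of 196 to 286 bp, of which 60.0% (56.9 to 63.0%) did, against 66.5% (62.5 to 70.3%), although the intervals just overlap. Within the 5 strata the promoter difference averaged 22.5 points.

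The widest ARID1B peak with SNF5, 3049 bp, lay at the promoter of SP5, a Wnt-responsive transcription factor, wholly inside an SNF5 peak of 7071 bp. The next were 2323 bp in an intron of EVA1A, a membrane protein linked to autophagy, and 2053 bp at the promoter of ID1, an inhibitor of helix-loop-helix factors, inside an SNF5 peak of 9392 bp. Without SNF5 the widest were 1836 bp at the promoter of GRK1, the rhodopsin kinase of photoreceptors, 1475 bp at SMIM4 and 1113 bp at LYNX1. These had their nearest SNF5 peak 9772, 1155 and 37135 bp away.

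**Figure D2:**
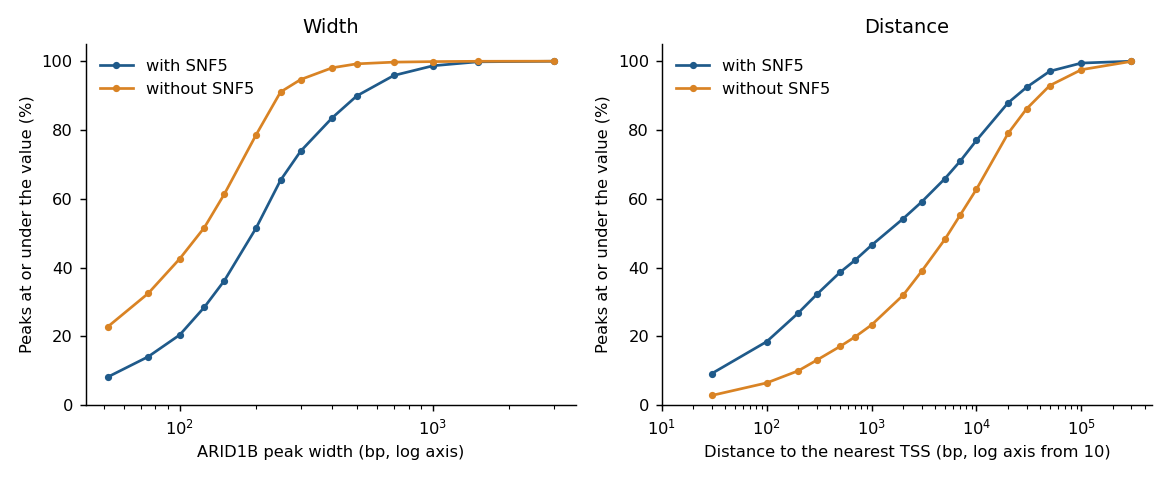
Cumulative share of ARID1B peaks (percent, y axes) at or under a given width (left, bp, log axis) and distance to the nearest TSS (right, bp, log axis) for the 5490 peaks with and the 3238 without SNF5. Peaks with SNF5 lie to the right in width, with medians of 195 against 120 bp, and to the left in distance, with medians of 1390 against 5456.5 bp.

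Peaks with SNF5 also lay closer to a TSS. The median distance was 1390 bp (1230 to 1567 bp) with SNF5 and 5456.5 bp (5009 to 6023 bp) without, a ratio of 0.255, and it was lower with SNF5 on all 24 chromosomes. Most of this contrast was that between types. Outside promoters the medians were 8024.5 and 9403 bp, a ratio of 0.853. Within introns they were 7124 bp (6649 to 7618 bp) and 7342 bp (6687 to 7922 bp), with overlapping intervals, while within distal peaks they were 10453 bp (9621 to 11484 bp) and 13712 bp (12335 to 14779 bp). Among promoter peaks those with SNF5 again sat nearer, at 150 against 251 bp.

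By distance, the share with SNF5 was 92.1% (70 of 76) for peaks listed at 0 bp, 82.2% at 1 to 99 bp, 79.1% at 100 to 249 bp and 68.3% at 500 to 999 bp. Beyond the promoter it was nearly flat, at 60.1% from 1000 to 1999 bp and between 52.8 and 56.4% from 2000 to 49999 bp. It then fell to 46.6% (130 of 279) at 50000 to 99999 bp and 27.3% (30 of 110, 19.8 to 36.3%) farther out. The farthest peaks were also narrower, with a median width of 108.5 bp, and their width was not separated from distance in that last figure.

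Many peaks without SNF5 were near one. The gap to the nearest SNF5 peak had a median of 6138.5 bp, and 28.6% of these peaks lay within 500 bp and 35.4% within 1000 bp. At promoters the median gap was 711 bp and 53.6% lay within 1000 bp, against 9416 bp and 29.5% for intron and distal peaks. Allowing a gap of 1000 bp would raise the share with SNF5 to 76.0%. Within 100000 bp an SNF5 peak was found for 82.7% of them.

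Where the lists met, the ARID1B peak was usually the smaller and lay inside its partner. Of the 5490 peaks with SNF5, 4276 (77.9%) were wholly contained in an SNF5 peak, 192 were wider than the partner, and 2 touched more than 1 SNF5 peak. Containment was more frequent at promoters, at 81.5% (80.0 to 83.0%), than in introns and distal sites, at 74.6% (73.0 to 76.2%). The partner had a median width of 1252 bp and a median score of 24, a whole number deposited with each SNF5 peak. How the score was set for peaks that the authors had joined is not given in the sources used here, so it serves only to rank peaks within the list. The midpoint of the ARID1B peak fell in the middle 50% of the SNF5 peak in 56.2% of cases (54.9 to 57.5%).

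ARID1B peaks with SNF5 were often grouped. Another ARID1B peak lay within 1000 bp of 34.0% of peaks with SNF5 and of 13.0% of peaks without. The contrast held at promoters, at 33.3% and 17.4%, and in introns and distal sites, at 34.6% and 11.6%. When ARID1B peaks at most 1000 bp apart were joined into 7444 regions, the share with SNF5 was 61.3% and the promoter difference 24.2 points.

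On the SNF5 side, 4481 of 20718 peaks (21.6%, 21.1 to 22.2%) held an ARID1B peak. Of all SNF5 peaks, 3699 held 1, 631 held 2, 106 held 3 and 45 held 4 or more. SNF5 peaks that held ARID1B scored higher and were wider. The median score was 18 for peaks with 0 ARID1B peaks, 23 for those with 1, 26 for those with 2 or 3, and 28 for those with 4 or more, and the median widths rose from 465 to 954, 1842, 2893.5 and 4570 bp. The share that held ARID1B was 5.66% at scores of 10 to 14 and 59.1% (199 of 337) at 40 or above. It was 6.01% for SNF5 peaks of up to 271 bp and 53.5% for those of 1101 bp or more. A wider SNF5 peak has more bases with which to meet an ARID1B peak, so width and number held are tied. Within each of 5 strata of SNF5 width the mean score was still higher in peaks with ARID1B, by 2.95 to 5.05. In the list as a whole the mean score was 24.7 with ARID1B (SD 8.07, n = 4481 peaks) and 19.8 without (SD 5.75, n = 16237 peaks), where the SD is the spread over peaks.

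**Figure D3:**
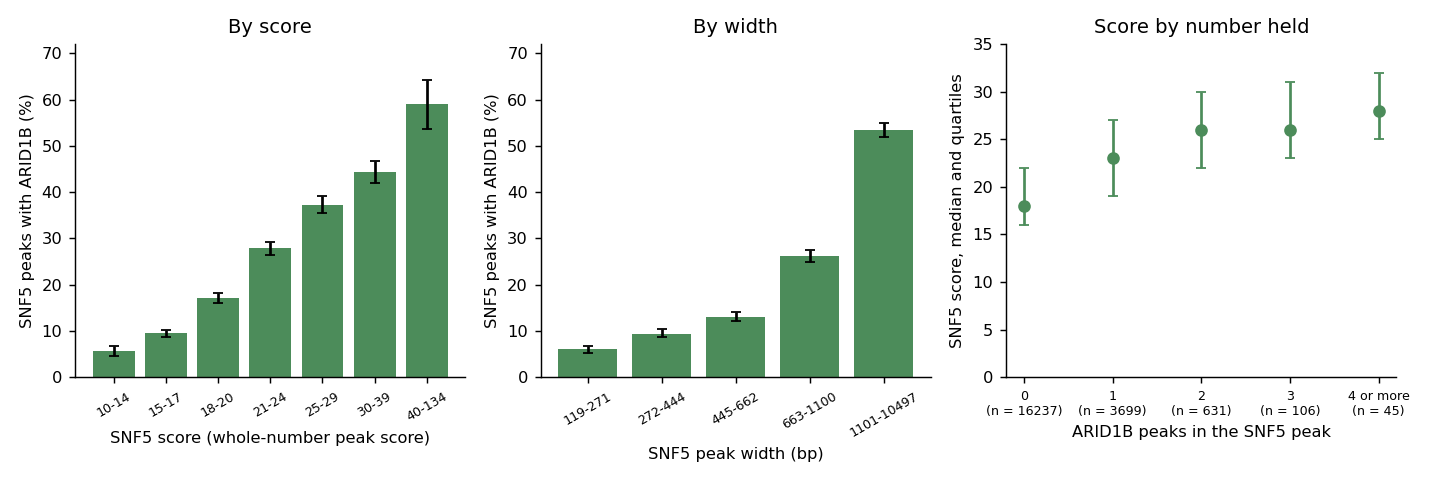
Share of SNF5 peaks that hold an ARID1B peak (percent) by SNF5 score and by SNF5 peak width in bp, with Wilson 95% intervals, and SNF5 score (median with quartiles as bars) by the number of ARID1B peaks held. The share rises in every bin, from 5.66 to 59.1% by score and from 6.01 to 53.5% by width, and the median score goes from 18 to 28 while the quartiles overlap between neighbours.

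The SNF5 peak that held most ARID1B peaks was one of 8750 bp at ZNF217 on chromosome 20, with 8 of them, each 52 to 710 bp wide and within 2814 bp of a TSS. ZNF217 encodes a zinc finger repressor that is amplified in several cancers. The next were a region of 10497 bp on chromosome 17 with 7 ARID1B peaks at VMP1 and MIR21, a microRNA gene abundant in many tumours, and a region of 7134 bp on chromosome 6 with 7 promoter peaks at BRD2, a bromodomain protein, and the neighbouring HLA-DMA. Thus the SNF5 peaks with the highest counts of ARID1B peaks were not those of top score. They were long, which leaves more room for ARID1B peaks, and the counts were not divided by length. The highest SNF5 scores with an ARID1B peak were 134 on a piece of 150 bp at position 10008 of chromosome 7, 124 on a piece of 173 bp at a U2 copy on chromosome 10, and 106 at MIR663A on chromosome 20. Chromosome ends and multi-copy RNA genes can have near-identical copies elsewhere, so reads there may be of uncertain origin, which was not tested.

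The share with SNF5 differed between chromosomes. Over the 22 autosomes it ran from 43.9% (37.4 to 50.6%) on chromosome 4 to 82.0% (77.8 to 85.6%) on chromosome 20, with a median of 57.6% and an SD of 9.78 points. After chromosome 20, the highest shares were on chromosomes 2 (73.6%), 17 (71.7%), 6 (71.5%), 14 (68.1%) and 16 (68.1%), and the next, chromosome 3, was at 60.6%. Chromosomes 20 and 19 had like densities of ARID1B peaks, 6.0 and 6.56 per Mb, but 90.1% and 72.9% of their promoter peaks and 76.7% and 46.8% of their other peaks had SNF5. Across the autosomes the share went with ARID1B peaks per Mb (Pearson r = 0.734, Spearman rho = 0.825, n = 22 chromosomes of the same libraries, given as a description).

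Peak width moved with the chromosome too. The median width of ARID1B peaks was 184 bp on chromosome 2, 186 bp on 6 and 177.5 bp on 20, against 138 bp on 4 and 145 bp on 9, and the median SNF5 width was 651.5 bp on 20 and 464.5 bp on 4. HepG2 is an aneuploid line, and the part of chromosome copy number in these shares was not tested. On the X chromosome SNF5 met only 5 of 62 ARID1B peaks (8.06%, 3.49 to 17.5%), and both lists were thin there, with 0.399 ARID1B and 0.528 SNF5 peaks per Mb.

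**Figure D4:**
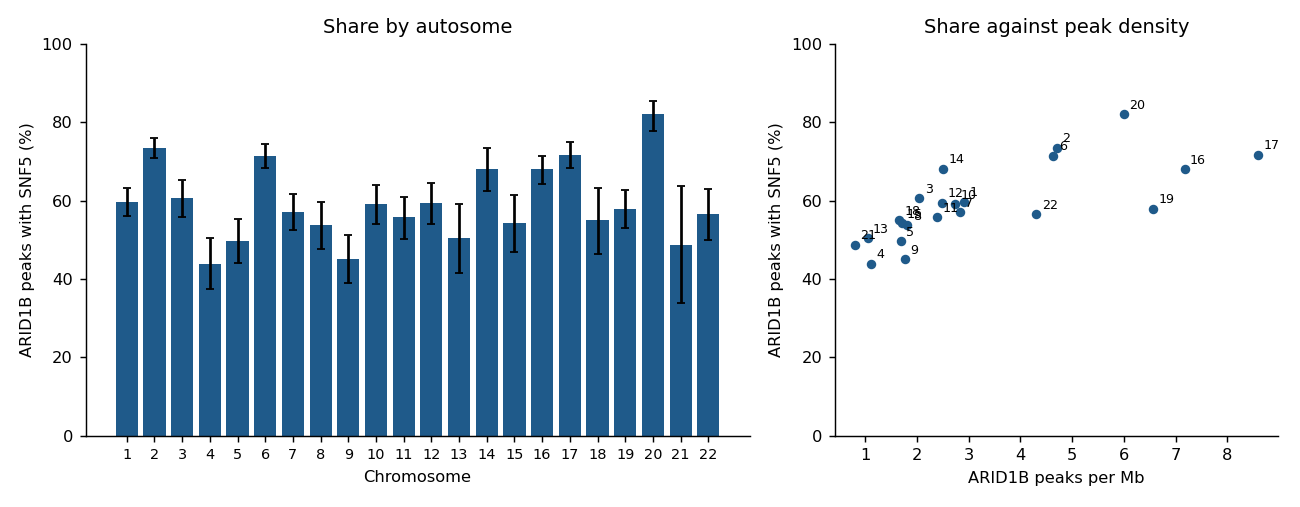
Share of ARID1B peaks with SNF5 (percent) on each of the 22 autosomes, with Wilson 95% intervals as bars (left), and the same share against ARID1B peaks per Mb, 1 point per chromosome (right). Chromosome 20 stands at 82.0% and chromosome 4 at 43.9%, and chromosome 19 lies low for its density, at 58.0%.

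By nearest gene, the 8728 peaks fell to 5543 gene names. Of these, 2852 names (51.5%) had only peaks with SNF5, 1951 (35.2%) only peaks without, and 740 (13.4%) had both, so that 64.8% (63.5 to 66.0%) had at least 1 peak with SNF5. The share of peaks with SNF5 was 54.3% for names with 1 peak, 67.8% with 2, 71.1% with 3, 74.5% with 4 and 75.9% with 5 or more, counting names found on 1 chromosome. Genes that gathered ARID1B peaks therefore had SNF5 at more of them. Among names on several chromosomes, which stand for families of small RNA genes, SNF5 overlapped 54 of 102 peaks at U6, 28 of 60 at Metazoa_SRP, 28 of 54 at Y_RNA and 20 of 42 at snoU13. These are near the 54.0% of intron peaks and 54.1% of distal peaks, and the median distance to the TSS of these names was 6210 to 9603.5 bp. The less frequent names gave 11 of 18 peaks at 7SK, 6 of 8 at U7, 4 of 6 at U3 and 5 of 6 at U1.

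Single genes with most SNF5-bound ARID1B peaks were SEPT9, a cytoskeletal septin, with SNF5 at 14 of 15, ZNF217 at 14 of 14, SLC7A5, the large neutral amino acid transporter, at 12 of 13, and CTD-2126E3.4 at 12 of 15. PTP4A1, a growth-associated phosphatase, had it at 11 of 12, and ZFP36L2, an RNA-binding protein that promotes mRNA decay, at 11 of 11. At SEPT9 the sole exception was a peak of 52 bp in an intron, 2388 bp from SNF5, and the widest peak was 1517 bp at a promoter. At PTP4A1 a distal peak of 1574 bp and promoter peaks of 867 and 424 bp all had SNF5, while the exception was again 52 bp wide, 267 bp from SNF5. At SLC7A5 the exception was a promoter peak of 66 bp, 128 bp from SNF5. The exceptions were narrow in these 3 genes, but SEPT9 also had promoter peaks of 52 bp with SNF5.

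Other loci were named because they held most peaks without SNF5, so a contrast with the genes above follows from the choice. Over the whole list 54.0% of intron peaks and 54.1% of distal peaks had SNF5. NPIPL3, of a multi-copy gene family whose reads may be split between copies, had SNF5 at 10 of 24 peaks on chromosome 16, and the 14 others lay 643 to 19797 bp from SNF5. AC124853.1 on chromosome 19 had it at 10 of 20 distal peaks, spread from 4961 to 42927 bp from the TSS. The 10 others lay close to an SNF5 peak, with gaps of 12 to 1199 bp, so that SNF5 and ARID1B peaks alternated along the region. IZUMO2, also on chromosome 19, had SNF5 at 5 of 10 distal peaks, and MAP4K4, a stress kinase, at 4 of 9. CTA-392E5.1 on chromosome 8 had it at 0 of 5, with gaps of 2009 to 26450 bp.

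The peaks nearest to genes of 11 lists, 253 in all, were then counted, and 206 of them had SNF5. These counts are read beside 62.9% for all peaks and 77.2% for promoter peaks. For replication-dependent histones, the core proteins of chromatin, all 34 names that occur in the list were taken, the pseudogene HIST1H3PS1 included. Here 51 of 54 peaks (94.4%, 84.9 to 98.1%) had SNF5. Of these peaks 47 were at promoters and 46 of those had SNF5. At HIST1H4J a promoter peak of 1573 bp had SNF5 and distal peaks of 129 and 102 bp did not. At HIST1H4K a promoter peak of 1274 bp and a distal one of 65 bp both did.

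Genes of secreted plasma proteins, the main export of hepatocytes, had SNF5 at 36 of 42 peaks (85.7%, 72.2 to 93.3%), and 22 of the 42 listed genes had an ARID1B peak. APOB, the structural protein of low-density lipoprotein, had SNF5 at 8 of 8 peaks, from a promoter peak of 533 bp to a distal one of 621 bp that lay 26751 bp from the TSS. FGA, the fibrinogen alpha chain, had it at 4 of 5, and the fifth, 52 bp wide, stopped 40 bp short of SNF5. APOH had it at 3 of 3, with an intron peak of 501 bp, and ITIH2, an inhibitor chain that binds hyaluronan, at 2 of 3.

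Hepatocyte transcription factors had SNF5 at 22 of 29 peaks (75.9%, 57.9 to 87.8%), with a peak at 12 of 23 genes. At CEBPB all 6 peaks, from 52 to 439 bp wide and 193 to 3114 bp from the TSS, fell into 1 SNF5 peak of 5491 bp. FOXA2, a pioneer factor of liver, had SNF5 at 3 of 3. FOXA1, its paralog, had SNF5 at distal peaks of 298 and 443 bp and lacked it at a promoter peak of 52 bp, 2821 bp from SNF5. PROX1, a homeobox factor of liver and lymphatic cells, had it at 3 of 4, the widest being 624 bp and 54362 bp from the TSS.

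Genes of the TGF-beta and SMAD pathway had SNF5 at 26 of 36 peaks (72.2%, 56.0 to 84.2%), and 17 of 30 genes had a peak. Promoters contributed 15 of 16 with SNF5. SMAD3 had it at 3 of 5 peaks, both promoter peaks of 358 and 443 bp among them. SMURF1 had it at 3 of 4, and TGIF1, a repressor of SMAD signalling, at 3 of 3.

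SWI/SNF subunit genes had SNF5 at 12 of 16 peaks (75%, 50.5 to 89.8%). At ARID1B itself 2 of 3 peaks had it, and the intron peak without SNF5 was 74 bp wide and 1097 bp away. SMARCA4, the ATPase BRG1, had SNF5 at promoter peaks of 232 and 134 bp but lacked it at an intron peak of 52 bp. ARID2 had it at 2 of 3, and its exon peak of 363 bp was 84310 bp from SNF5.

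NRF2 oxidative stress genes had SNF5 at 16 of 19 peaks (84.2%, 62.4 to 94.5%). NQO1, a quinone reductase, had it at 4 of 4, GCLC, which makes glutathione, at 3 of 3 and NFE2L2, which encodes NRF2, at 2 of 2, one of them 936 bp wide. Cell cycle regulators had it at 13 of 14 (92.9%, 68.5 to 98.7%), with 3 of 3 each at CDKN1A, the inhibitor p21, and at CDK6. Ribosomal protein genes had it at 12 of 15, and AP-1 and MAF factors at 6 of 7, where both FOSL2 promoter peaks, 357 and 296 bp, had SNF5.

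Cholesterol and KLF genes had the lowest shares of the 11 lists, on few peaks and with wide intervals. Cholesterol and lipid synthesis genes had it at 10 of 15 peaks (66.7%, 41.7 to 84.8%). FDFT1, the squalene synthase, had SNF5 at 1 of 3. KLF factors had it at 2 of 6 (33.3%, 9.68 to 70.0%), with the promoter peaks of KLF6 (387 bp) and KLF16 (96 bp) having SNF5 and the distal peaks nearest to KLF13 (268 bp) and KLF10 (110 bp) not. Over the 11 lists the interval lay above 62.9% in 3 (plasma proteins, cell cycle and histones), below it in 0 and across it in 8. The intervals of plasma proteins (72.2 to 93.3%) and cell cycle (68.5 to 98.7%) spanned the 77.2% of promoter peaks. That of histones (84.9 to 98.1%) lay above it. Histone peaks had a median width of 239 bp, however. Promoter peaks of 196 to 286 bp had SNF5 at 82.0% and those of 287 bp or more at 91.1%. The lists were not compared within strata of width. Peaks of a gene can share an SNF5 peak, as all those of CDKN1A did, so the intervals of the lists are too narrow.

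The sequence under the peaks differed by type. Median GC content was 54.3% (53.8 to 54.8%) with SNF5 and 49.1% (48.5 to 49.7%) without. Among promoters it was 63.6% (63.2 to 64.2%) and 59.4% (58.1 to 61.1%), and the ratio of observed to expected CpG, which is high in CpG islands, was 0.766 and 0.599. In introns, at 46.7% and 46.3%, and at distal sites, at 48.1% and 47.2%, the intervals overlapped. The GC contrast of the whole list was thus mainly one of promoters and of their greater share.

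Motif matches were counted in windows reaching 100 bases to either side of the midpoint, on both strands, with 12 motifs in each of 2 classes and unadjusted intervals. In intron and distal windows 7 motifs were more frequent with SNF5, 0 were less frequent and 5 had an interval that spanned 0. HNF4A, FOXA, C/EBP and AP-1 gave the largest differences. HNF1, another liver factor motif, was at 2.73% and 1.71% (difference 1.02, 0.216 to 1.83), and its difference within strata of peak width was 0.459. HNF4A (CAAAGTCC) was found in 4.01% of windows with SNF5 and 1.21% without, a difference of 2.80 points (1.96 to 3.67). It was found in 2.72% of all ARID1B intron and distal windows and 0.837% of RefSeq promoters. FOXA (TGTTTAC) was found in 6.92% and 3.46% (difference 3.46, 2.27 to 4.66), beside 5.33% and 2.33%. C/EBP (TTGCNNAA) was found in 15.2% and 10.2% (difference 5.06, 3.25 to 6.85), beside 12.9% and 6.96%. AP-1 (TGANTCA) was found in 10.4% and 6.79% (difference 3.57, 2.05 to 5.08), beside 8.72% and 5.39%. AP-1 matches were not divided by the base at N, so these shares count every centre base and not only FOS/JUN sites. RefSeq promoters are another class of site than these windows. The windows printed above for TGFBR2, SMAD3, APOH and SMURF2 hold these motifs.

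In promoter windows 6 motifs were more frequent with SNF5, 1 was less frequent and 5 spanned 0. HNF4A was among the 6 here too, at 1.96% with SNF5 and 0.796% without (difference 1.16, 0.122 to 1.91). So was NFY, at 3.64% and 2.12% (difference 1.52, 0.0668 to 2.66). The GC box (GGGCGG) was found in 43.8% with SNF5 and 33.8% without (difference 10.0, 6.08 to 13.8). It was found in 41.6% of all ARID1B promoter windows and 40.2% of RefSeq promoters. Within 5 strata of GC content the difference with and without SNF5 was 1.51 points. ETS (CCGGAAG) was found in 7.60% and 3.85%, the E-box (CACGTG) in 5.76% and 2.79%, and NRF1 (GCGCATGC) in 3.17% and 1.19%, beside 7.73, 5.51 and 2.45% of RefSeq promoters. Their differences within strata of GC were 3.19, 2.69 and 1.86 points. AP-1 was as frequent in either class of promoter, at 3.96% and 3.98% (difference -0.0211, -1.80 to 1.42). TEAD (GGAATGT) was less frequent in promoters with SNF5, at 1.92% and 3.18% (difference -1.26, -2.84 to -0.0621). Its promoter difference within strata of GC was -0.657. In intron and distal windows TEAD went the other way, at 4.40% with SNF5 and 3.25% without (difference 1.15, 0.0983 to 2.19). A match describes letters only and does not show that a factor binds.

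**Figure D5:**
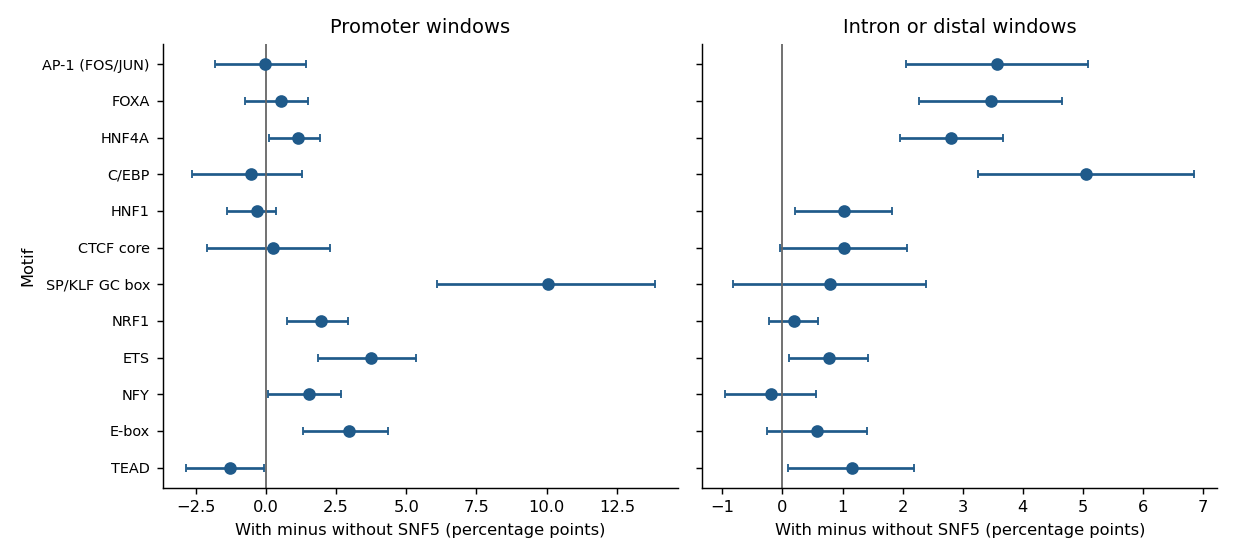
Share of windows (100 bases to either side of the peak midpoint) with a motif match, with minus without SNF5 (percentage points, x axes), for 12 motifs (y axis) in promoter windows (left) and intron or distal windows (right); bars are Newcombe 95% intervals. In intron and distal windows HNF4A, FOXA, C/EBP and AP-1 lie at 2.80 to 5.06 points, and in promoter windows the GC box lies at 10.0 and AP-1 at -0.0211.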

How the data were processed

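Per the paper's methods, bowtie2 placed the single-end reads on hg19, duplicates were filtered, the pair of replicates per antibody was merged, MACS2 called broad peaks, and the authors joined close peaks and dropped blacklisted ones. Whether the input library served as control is not given in the sources used here. The deposited coordinates, widths and distances are in bp, the deposited type and nearest gene come from Gencode, and the authors' SNF5 peak score is a whole-number score that the ARID1B list lacks. Against Gencode v44, lifted to GRCh37, a TSS within 1000 bp matched the deposited promoter type for 95.8% of peaks. Of the 6196 peaks whose gene name was found there, 70.6% had a distance within 10 bp of that from the peak midpoint. The deposited chromatin state was not used here, because only 41.7% of promoter peaks were in an active promoter state, with 68.7% on chromosome 1 and 26.9 to 59.0% on other chromosomes with at least 10 such peaks. The input library and the other lists were not analysed here.

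Overlap, shares and medians were computed with Python 3.11.15, pandas 2.3.3, numpy 2.4.6, scipy 1.17.1 and pysam 0.24.0, and the overlap step was tested on simulated data. The 95% intervals are Wilson for shares, Newcombe for differences and order statistics for medians. With 1 merged list per antibody no p-value was computed. Peaks were divided into 5 width strata of like size. GC content came from GRCh37, in which 4 ARID1B peaks have no base call. RefSeq promoters were 35116 windows of a GRCh38 table, trimmed to the length of the peak windows. Depth is unknown and enters no interval. Starts are printed counted from 1. Sequences were taken off chromosome 8 and outside annotated exons.

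Members, gene lists, motifs and alternatives were chosen with earlier results of these data known. Genes were named by rule, as the up to 4 genes per list with most ARID1B peaks, the names with most peaks with or without SNF5 (5 each, given also for names on 1 chromosome), the 3 widest peaks of each class, and the 3 SNF5 peaks with most ARID1B peaks or of highest score. Some genes and sequences that this rule names are not reported here. Alternatives were other overlap rules, autosomes only, joined peaks, width strata and other distance limits.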

Additional observations from a re-analysis of the deposited data

How the results depend on the processing

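Leaving out a replicate was not possible, because the authors merged both replicates before calling peaks. Of 67 alternatives to 9 results, 33 lay within the interval of the reported value, 30 lay outside it without a change of direction and 4 reversed. The share of peaks and the share of gene names cannot be negative, so these could not reverse. The interval of the alternative itself was not used in this count.

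The 4 reversals came with a reciprocal overlap of at least 50%, which kept 5.58% of ARID1B peaks. The promoter difference was then -0.536 points, the intron difference 1.89 points, the distance ratio 1.14 and the GC difference -1.03 points, while the distal difference was -2.11 points and the width ratio 2.64. The intervals of these differences and of the distance ratio (-4.85 to 3.97, -2.37 to 6.35, 0.836 to 1.54, -2.52 to 0.528 and, for distal, -5.81 to 1.98) all include no difference. The cause was not tested. The share with SNF5 was 58.1% with at least 50% of the ARID1B peak covered, 76.0% with a gap of at most 1000 bp, 53.3% with midpoints at most 500 bp apart, 52.2% with SNF5 peaks of score 19 or more and 61.3% with ARID1B peaks joined. With that gap the promoter difference was 27.8 points, the distal difference -13.5 points, the distance ratio 0.217, the share of gene names 74.4% and the SNF5 score difference 3.71, against 4.96 in the report's comparison. With the midpoint rule the promoter, intron and distal differences were 13.4, -6.18 and -6.72 points, the distance ratio 0.516, the width ratio 1.32 and the GC difference 3.35 points. The width ratio was 1.47 with that coverage of the ARID1B peak, 1.48 with high-score SNF5 peaks, 1.93 with joined peaks, 1.43 at promoters and 1.75 in intron and distal peaks. The promoter difference was 17.6 points with a distance of at most 5000 bp, the distance ratio 0.853 outside promoters, and the GC difference 4.20 points at promoters and 0.668 in intron and distal peaks, where its interval spanned 0. Gene names with SNF5 were 71.5% for peaks within 5000 bp of a TSS, and the SNF5 score difference was 3.93 within width strata.

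Comparisons of 14 motif shares within 5 strata of peak width or of GC content were added after seeing the data. Of these 28 values, 27 lay within the interval and the GC box at promoters, at 1.51 points within GC strata, did not. The unknown depth of both lists limits what absence of SNF5 at a peak can mean.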
